A study of Homo sapiens with 9 samples.

Results

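The genes described here are 4 keratins (KRT8, KRT18, KRT19 and KRT10), 2 classical cadherins (CDH1 and CDH2), the epithelial adhesion molecule gene EPCAM and the vimentin gene VIM. They were taken by symbol from a table of 61853 genes, and all 8 are listed there. They were chosen by symbol after their log2 fold changes between DIS3-sh1 and Scramble in these libraries were known, so these values are given as a description, and no test on them is used as support. The cells were 293T, a line derived from human embryonic kidney that carries the SV40 large T antigen. Circular RNAs after knockdown of DIS3 are the subject of the series, and the values used here are counts per gene. Cells of the first group received the shRNA DIS3-sh1, against DIS3, the catalytic nuclease of the nuclear RNA exosome, and the labels call their genotype a DIS3 knockdown. Cells of the other group received a Scramble shRNA and are labelled WT. Each group has 3 libraries, described in the design as biological replicates. All are of the 1 cell line, with total RNA depleted of ribosomal RNA. In such bulk samples, fewer cells with a transcript and less of it per cell cannot be told apart. The labels do not say how the shRNAs were delivered or for how long. A second shRNA of the series, DIS3-sh2, is not analysed here, because no column of the table carries its name.

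Keratins are the intermediate filament proteins of epithelia. A filament needs a type I and a type II keratin in equal amounts: in simple, single-layered epithelia these are chiefly KRT18 and KRT19 (type I) with KRT8 (type II), and KRT10 is a type I keratin of the upper epidermis. VIM, a type III filament protein, forms homopolymers and is typical of mesenchymal cells and of many cultured lines. CDH1 (E-cadherin) and CDH2 (N-cadherin) hold neighbouring cells together through adherens junctions and bind catenins inside the cell. EPCAM is a membrane glycoprotein of epithelial cells. The pairs CDH1 and CDH2, and keratins and VIM, are widely used as epithelial and mesenchymal markers.

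KRT8 and KRT18 have many processed pseudogenes, and their sequences are shown here because they decide how well reads of the parent genes can be told from those of the copies. The table lists 51 KRT8 copies and 67 KRT18 copies. The 3 copies of each gene with the most counts were aligned to the coding sequence of the parent, using GENCODE 29 transcripts on GRCh38. Identity to KRT8 was 90.6% for KRT8P12, 91.9% for KRT8P46 and 90.8% for KRT8P39. Identity to KRT18 was 90.6% for KRT18P31, 91.7% for KRT18P5 and 92.7% for KRT18P15. The stretches below are 60 coding bases inside 1 exon, chosen as the first whose differences from the 3 copies together were nearest the median, and capitals mark bases that differ from the parent. The KRT8 stretch lies in exon 2 at chr12:52904913-52904972 (minus strand), and the KRT18 stretch in exon 1 at chr12:52949186-52949245 (plus strand).
KRT8: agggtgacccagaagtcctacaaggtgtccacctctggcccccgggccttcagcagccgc
KRT8P12: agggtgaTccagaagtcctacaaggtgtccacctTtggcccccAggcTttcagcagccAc
KRT8P46: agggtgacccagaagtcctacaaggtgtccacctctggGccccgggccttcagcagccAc
KRT8P39: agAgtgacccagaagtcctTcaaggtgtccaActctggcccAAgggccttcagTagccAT
KRT18: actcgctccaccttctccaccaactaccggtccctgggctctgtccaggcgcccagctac
KRT18P31: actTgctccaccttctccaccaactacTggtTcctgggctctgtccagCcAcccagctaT
KRT18P5: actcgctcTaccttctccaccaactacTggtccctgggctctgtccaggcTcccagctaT
KRT18P15: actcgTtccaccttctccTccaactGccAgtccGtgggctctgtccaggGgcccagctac
The copies lie at chr3:160567861-160567920 (plus strand, KRT8P12), chr4:102730103-102730162 (minus, KRT8P46), chr12:68705643-68705702 (plus, KRT8P39), chr5:36885218-36885277 (plus, KRT18P31), chr22:20484034-20484093 (minus, KRT18P5) and chr3:32258952-32259011 (plus, KRT18P15). In these stretches KRT8P46 differed from KRT8 at 2 bases, KRT8P12 at 5 and KRT8P39 at 8, and the KRT18 copies differed from KRT18 at 4 to 6 bases. Over the whole coding sequence, 8.89% of the 1350 windows of 100 bases of KRT8 also occur unchanged in at least 1 copy. For KRT18, 0 of 1191 such windows do. In the 3 aligned copies of each gene, the longest run identical to the parent was 62 bases for KRT8 (KRT8P39) and 83 bases for KRT18 (KRT18P15). The read length is not given in the sources used here, so the window length is only an illustration.

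Library totals ranged from 19800892 to 21100677 counts in DIS3-sh1 and from 20722775 to 23532148 counts in Scramble, and levels are given as CPM, counts scaled to a common library size with TMM factors. DIS3 itself was at 26.6, 27.8 and 27.9 CPM in DIS3-sh1, against 176, 186 and 177 CPM in Scramble. DIS3-sh1 replicate 1 stood apart from the rest of its group: its squared count differences averaged 9.02 and 9.15 times the sampling noise per gene, against 1.72 for the other DIS3-sh1 pair and 2.13 to 2.28 for Scramble pairs. Without that library the log2 fold changes were 2.79 for KRT8, 0.30 for KRT18, -0.74 for KRT10, 1.27 for CDH1, -0.04 for CDH2, 0.31 for EPCAM and 0.08 for VIM. Most defining markers of other cell types were at or near 0. The summed level of 5 endothelial genes was 0.35 to 0.52 CPM in DIS3-sh1 and 0.44 to 0.57 CPM in Scramble, and that of 5 blood genes was 1.55 to 1.74 CPM and 0.86 to 1.10 CPM, with CD3E and HBB at 0. The other 3 blood genes had counts, and 2 of them passed the filter on low counts. Of those 2, 1 was called higher in DIS3-sh1, beside 34.5% of all genes tested. Of 6 fibroblast genes, COL1A2 and THY1 had no count and DCN averaged 0.03 CPM in DIS3-sh1 and 0 CPM in Scramble, while COL1A1 was at 25.0 ± 2.18 CPM and 14.7 ± 0.47 CPM (SD, n = 3 each). The kidney and neural genes typical of the line were present, with NEFL at 76.6 ± 1.30 CPM and 90.8 ± 1.57 CPM and PAX2 at 4.33 ± 0.37 CPM and 1.67 ± 0.59 CPM, in the same order. The summed fibroblast genes, mostly COL1A1, ranged from 25.4 to 29.3 CPM in DIS3-sh1 and from 15.8 to 16.4 CPM in Scramble. Whether any fibroblasts were present was not tested.

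KRT8 differed most between the groups. It measured 33.4, 31.8 and 32.4 CPM in the DIS3-sh1 libraries, against 4.57, 4.46 and 4.89 CPM in Scramble. All 3 DIS3-sh1 libraries lay far above every Scramble library, and the libraries within a group were close together. The log2 fold change was 2.81 ± 0.09 (SE), a 7.01-fold higher level with a 95% interval of 6.19 to 7.93. Of the 19591 genes tested, 98 had a larger increase, and among the 10878 genes that averaged at least 10 CPM, 5 did. KRT8 reaches that average only through DIS3-sh1, where it is high. The gene was chosen with this fold change known, so its rank is a description and supports nothing.

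KRT18, the type I partner of KRT8, was far more abundant in Scramble and differed much less. It was at 57.8, 58.8 and 60.9 CPM in DIS3-sh1 and at 50.9, 47.1 and 48.2 CPM in Scramble. The groups did not overlap, with a log2 fold change of 0.28 ± 0.05, or a 1.21-fold higher level (95% interval 1.13 to 1.30). Since KRT8 and KRT18 are partners, their levels were compared per kilobase of the longest principal transcript. The level of KRT8 was 0.425, 0.398 and 0.391 times that of KRT18 in the DIS3-sh1 libraries, against 0.066, 0.070 and 0.075 times in the Scramble libraries. KRT18 thus exceeded KRT8 in every library, and by less in DIS3-sh1. These ratios leave out the pseudogene copies. For KRT8 these held 73.7% of the joint counts in Scramble and 30.7% in DIS3-sh1, for KRT18 12.2% and 10.7%. The size of the difference in ratio therefore depends on how reads were assigned.

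The genes lie beside each other on chromosome 12, KRT8 at 52897187 to 52949954 on the minus strand and KRT18 at 52948871 to 52952901 on the plus strand. Their annotated spans overlap by 1084 bases, and no source says whether counting used the strand. Reads of the overlap therefore cannot be assigned with certainty.

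**Figure D1:**
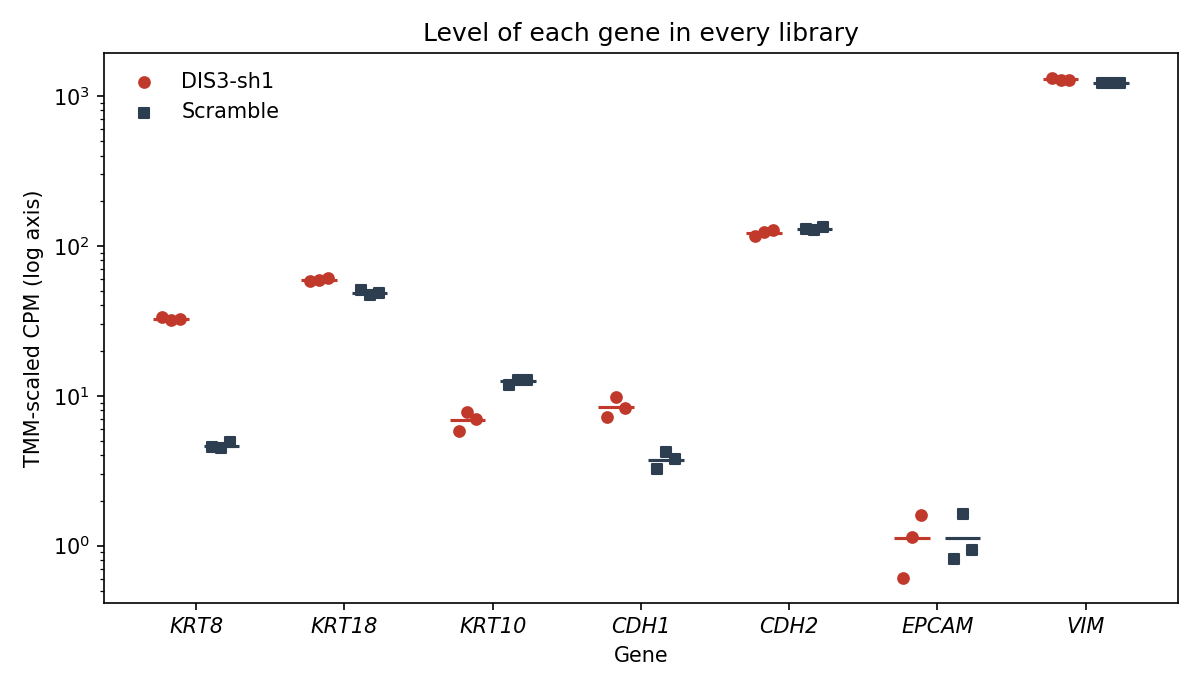
TMM-scaled CPM (log axis) of 7 of the 8 genes in the 3 DIS3-sh1 libraries (circles) and the 3 Scramble libraries (squares), with the group mean as a line; KRT19 had no count. KRT8 and CDH1 sit higher and KRT10 lower in every DIS3-sh1 library, while the EPCAM points of the groups are intermixed.

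The pseudogene copies of KRT8 did not follow KRT8. Their summed level was 14.7, 13.6 and 15.1 CPM in DIS3-sh1 and 12.9, 12.2 and 13.8 CPM in Scramble, ranges that overlap. The copies therefore made up 30.7% of the counts of KRT8 and its copies together in DIS3-sh1 and 73.7% in Scramble. Of 51 copies, 19 had a count and 5 passed the filter on low counts. KRT8P46 was higher in DIS3-sh1 (4.21 ± 0.32 CPM, against 2.60 ± 0.61 CPM in Scramble, log2 fold change 0.71 ± 0.18, edgeR adjusted p = 0.000774). KRT8P12 was lower (3.56 ± 0.23 CPM, against 4.75 ± 0.68 CPM in Scramble, log2 fold change -0.42 ± 0.15, edgeR adjusted p = 0.0169). KRT8P33, named after its values were seen, was higher by a log2 fold change of 0.74 (edgeR adjusted p = 0.0103), and the other 2 were not called. Over all genes tested 67% were called, so nothing is read from the number of copies called. With the counts of all copies added to those of KRT8, the log2 fold change of the sum was 1.42 in place of 2.81. How reads were divided between KRT8 and its copies was not tested.

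For KRT18 the copies weighed less. Their sum was 6.35, 7.03 and 7.82 CPM in DIS3-sh1 and 6.91, 6.68 and 6.70 CPM in Scramble, or 10.7% and 12.2% of the counts of KRT18 and its copies. None of the 5 KRT18 copies that passed the filter was called by edgeR (0 of 5 at adjusted p under 0.05, and 1 of 5, KRT18P5, at an unadjusted p under 0.05), and KRT18P31 measured 1.91 ± 0.77 CPM in DIS3-sh1 and 1.94 ± 0.07 CPM in Scramble. Over all genes tested 67% were called, but these 5 copies averaged at most 1.94 CPM in either group, so differences could be missed. Added to KRT18, all its copies together left its log2 fold change at 0.25.

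**Figure D2:**
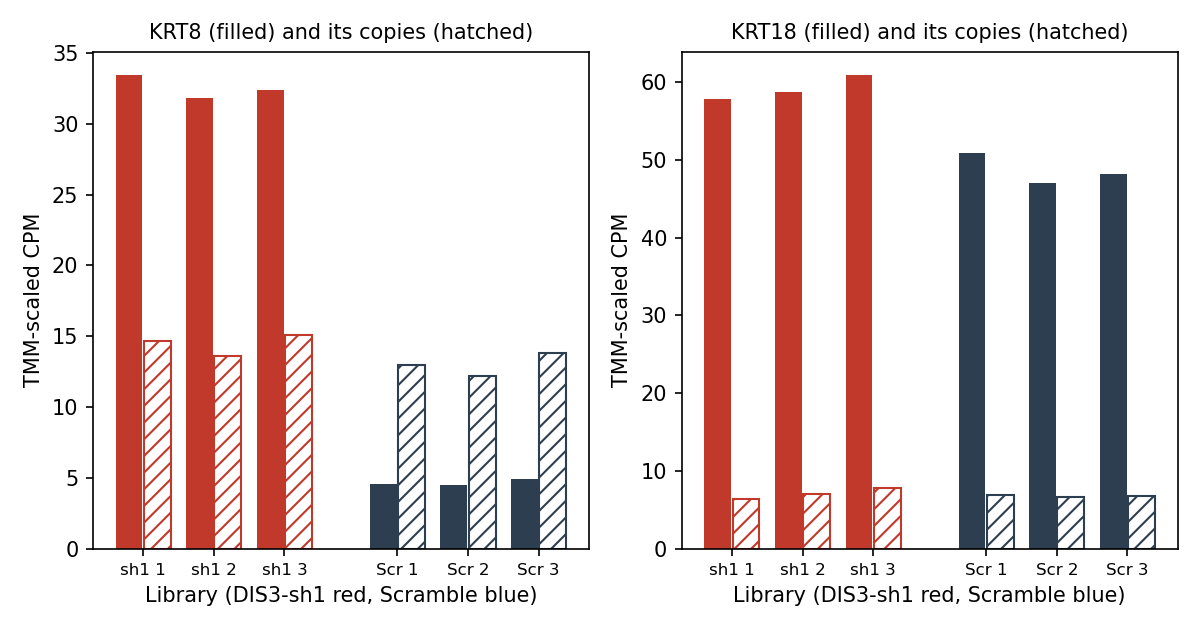
TMM-scaled CPM of KRT8 (left) and KRT18 (right) as filled bars, with the summed CPM of their pseudogene copies as hatched bars, in each DIS3-sh1 library (red, sh1) and each Scramble library (blue, Scr). The copies of KRT8 stay between 12.2 and 15.1 CPM in all 6 libraries, while KRT8 itself lies above them in DIS3-sh1 and below them in Scramble.

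KRT19, the other type I keratin of simple epithelia, had 0 counts in all 6 libraries. That allows a level of up to 0.141 to 0.150 CPM in a DIS3-sh1 library and up to 0.129 to 0.147 CPM in a Scramble library (3 counts, counting error only). It gives no fold change. KRT10 went against KRT8 and KRT18. It was at 5.79, 7.85 and 7.04 CPM in DIS3-sh1, against 11.8, 12.8 and 12.8 CPM in Scramble, and every DIS3-sh1 library was below every Scramble library. The log2 fold change was -0.85 ± 0.11, to 0.55 times the Scramble level (95% interval 0.47 to 0.65).

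KRT10 shares 3490 bases of its locus on chromosome 17 (40818117 to 40822595, minus strand) with KRT10-AS1, on the opposite strand. KRT10-AS1 measured 11.5 ± 0.84 CPM in DIS3-sh1 and 12.4 ± 0.19 CPM in Scramble and was not called (log2 fold change -0.12 ± 0.09, edgeR adjusted p = 0.276). The groups of KRT10-AS1 overlapped where those of KRT10 did not. As with KRT8 and KRT18, reads of the shared part cannot be assigned with certainty.

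Other keratins were almost silent. Of 25 further keratin genes, 20 had no count in any library, among them the simple epithelial partners KRT7 and KRT20 and the basal keratins KRT5 and KRT14. Only KRT222, a divergent type I gene, passed the filter, at 0.55 ± 0.27 CPM in DIS3-sh1 and 1.03 ± 0.27 CPM in Scramble (log2 fold change -0.85 ± 0.37, edgeR adjusted p = 0.0444). It passed the filter only through Scramble, its groups overlapped, and the call was lost under 8 of the 15 alternatives run, with adjusted p up to 0.227. Of the type II keratins listed, KRT8 was the 1 with more than 3 counts in any library.

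VIM was the most abundant of the 8 genes and differed little. It was at 1316, 1284 and 1286 CPM in DIS3-sh1, against 1223, 1212 and 1228 CPM in Scramble. The groups did not overlap, but the difference was 1.06-fold (95% interval 1.03 to 1.09), a log2 fold change of 0.09 ± 0.02. VIM lies on chromosome 10 at 17228259 to 17237593 on the plus strand. VIM-AS1, which overlaps its start on the other strand, measured 3.48 ± 0.17 CPM in DIS3-sh1 and 4.41 ± 1.16 CPM in Scramble and was not called (edgeR adjusted p = 0.0787).

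CDH1 was higher in every DIS3-sh1 library. It measured 7.25, 9.80 and 8.28 CPM in DIS3-sh1, against 3.25, 4.19 and 3.79 CPM in Scramble, a log2 fold change of 1.17 ± 0.14 (2.24-fold, 95% interval 1.84 to 2.74). The gene lies on chromosome 16 at 68737225 to 68835548, on the plus strand. TANGO6, which starts downstream of it on the same strand, was lower in DIS3-sh1 by a log2 fold change of -0.24 ± 0.06 (edgeR adjusted p = 0.000652).

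CDH2 was the far more abundant cadherin in both groups. It was at 116.4, 124.1 and 127.2 CPM in DIS3-sh1, against 128.7, 127.4 and 133.0 CPM in Scramble. The groups stood apart by less than 1 CPM at their nearest libraries, and the log2 fold change was -0.08 ± 0.04 (0.945-fold, 95% interval 0.897 to 0.996). With upper-quartile scaling instead of TMM it was -0.001, a setting that moved the median of all genes tested from 0.02 to 0.10. Per kilobase of transcript, the level of CDH1 was 0.055, 0.070 and 0.058 times that of CDH2 in DIS3-sh1, against 0.022, 0.029 and 0.025 times in Scramble. The pair therefore kept its order in every library. A sense intronic transcript inside CDH2 (ENSG00000274578) was lower, at 0.99, 0.75 and 0.71 CPM in DIS3-sh1 and 1.72, 1.93 and 2.01 CPM in Scramble (log2 fold change -1.19 ± 0.27, edgeR adjusted p = 0.000312).

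EPCAM was barely expressed. It had 0.61, 1.15 and 1.59 CPM in DIS3-sh1 and 0.82, 1.62 and 0.93 CPM in Scramble, from 69.5 and 72.0 counts in all. The groups were intermixed, with a log2 fold change of 0.01 ± 0.33. The 95% interval of the fold ran from 0.629 to 1.61, so differences within it could not be seen in these libraries. EPCAM-DT, the divergent transcript from the promoter side of EPCAM, measured 1.65, 1.45 and 1.76 CPM in DIS3-sh1 and 0.345, 0.238 and 0.342 CPM in Scramble. It rose (log2 fold change 2.37 ± 0.35, edgeR adjusted p = 4.73e-07), and its groups did not overlap. With 8, 5 and 7 counts in Scramble, it passed the filter on low counts only through DIS3-sh1, where it is high. The log2 fold change of EPCAM itself moved between -0.35 and 0.36 when single libraries were left out.

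**Figure D3:**
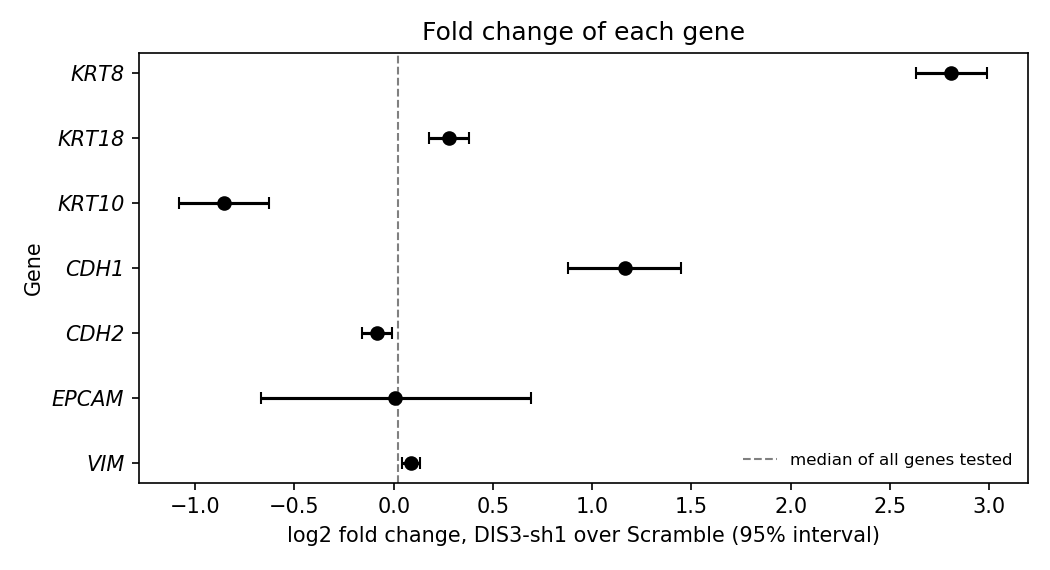
Log2 fold change of 7 genes, DIS3-sh1 over Scramble, with the 95% interval from the model as bars and the median of all genes tested (0.02) as a dashed line. KRT8 stands at 2.81, CDH1 at 1.17 and KRT10 at -0.85, and the other 4 genes lie between -0.08 and 0.28.

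Of the 8 genes, 7 passed the filter on low counts. At an adjusted p under 0.05, 4 of the 7 were called higher (KRT8, KRT18, CDH1 and VIM), 1 lower (KRT10) and 2 not at all, with a median log2 fold change of 0.09. Over all 19591 genes tested, 67% were called, 34.5% higher and 32.6% lower, with a median of 0.02. In 6 of the 7 the groups stood apart, as in 69.8% of all genes tested. The number of calls is near that background, and the genes were chosen with these values known, so nothing is read from it. Of all genes tested, 1.83% were called higher by a log2 fold change of at least 2, KRT8 among them. KRT8 was chosen with that value known, and with its copies added its log2 fold change was 1.42. Nothing is read from its place among these genes.

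Per kilobase of the longest principal transcript, with KRT8 and KRT18 counted without their copies, the order of levels differed between the groups at 1 place. In DIS3-sh1 the order was VIM (607 ± 8.53 CPM per kb), KRT18 (37.9 ± 1.01), CDH2 (28.3 ± 1.28), KRT8 (15.3 ± 0.38), KRT10 (3.25 ± 0.49), CDH1 (1.73 ± 0.26) and EPCAM (0.65 ± 0.29), all mean ± SD with n = 3. In Scramble it was VIM (572 ± 3.74 CPM per kb), KRT18 (31.2, from 30.1 to 32.6), CDH2 (29.9 ± 0.68), KRT10 (5.86 ± 0.27), KRT8 (2.18 ± 0.11), CDH1 (0.77 ± 0.10) and EPCAM (0.65 ± 0.25). KRT8, counted without its copies, thus stood above KRT10 in DIS3-sh1 and below it in Scramble. Those copies alone averaged 13.0 CPM in Scramble, against 12.4 CPM for KRT10, whose transcript has nearly the same length. With its copies added, KRT8 would therefore lie above KRT10 in both groups. KRT18 and CDH2 overlapped in Scramble and not in DIS3-sh1, and CDH1 and EPCAM likewise.

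The genes most like each member were found by the distance between log2 CPM profiles over the 6 libraries, each set against its Scramble mean, among genes of at least 10 CPM. This distance uses the same contrast and is a description. The nearest to KRT8 were ENSG00000213963, a non-coding gene (35.4 CPM on average in DIS3-sh1 and 4.99 CPM in Scramble), and SULF1, a heparan sulphate endosulphatase gene (31.9 and 4.31 CPM). The nearest to KRT10 were ELOC and SUZ12, and the nearest to CDH1 were CTBS and MOB1B. KRT18 was nearest to AGBL5 and WDR19, CDH2 to STIL and AZI2, and VIM to FTL and PEX13. The nearest to EPCAM, MIR7705 and MTATP6P1, were at distances of 0.69 and 0.75, against 0.03 to 0.33 for the others. EPCAM itself averaged 1.12 CPM in each group, so genes of its own level were not searched. At so few counts its profile is noisy, and nothing is read from these larger distances.

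The lists that follow are read beside the 34.5% of all genes tested that were called higher and the 32.6% called lower. The share called in either direction ran from 50% (epithelial identity genes) to 88.9% (plakins and catenins), against 67% over all genes tested. The lists are small and were chosen with earlier results known, so nothing is read from their numbers of calls. Among proteins that anchor keratin filaments, of 10 plakins and linkers, 9 passed the filter, with 5 called higher, 3 called lower and a median log2 fold change of 0.10. PLEC, the plectin that ties filaments to other structures, fell to 88.3 ± 5.73 CPM in DIS3-sh1, compared with 136 ± 4.14 CPM in Scramble (log2 fold change -0.62 ± 0.04, edgeR adjusted p = 2.22e-14). DSP, the desmoplakin that joins keratins to desmosomes, also fell, by 0.25 on the log2 scale (412 ± 4.83 CPM, against 491 ± 4.95 CPM). PNN, a desmosome-associated and nuclear protein gene, fell by 0.74. FAM83H, which recruits a kinase to keratin filaments, rose to 24.4 ± 2.54 CPM in DIS3-sh1, compared with 13.0 ± 0.48 CPM in Scramble (log2 fold change 0.91 ± 0.08).

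Other intermediate filament genes had 3 higher and 5 lower of 11 tested, with a median of -0.14. INA, the neuronal internexin, fell to 21.8 ± 0.53 CPM in DIS3-sh1, compared with 49.6 ± 1.48 CPM in Scramble (log2 fold change -1.19 ± 0.06, edgeR adjusted p = 1.24e-17). Among the nuclear lamins, LMNB2 (-0.73 ± 0.03) and LMNB1 (-0.28 ± 0.03) fell, and LMNA rose (0.51 ± 0.06).

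The remaining classical and type II cadherins were at low levels, and 6 of 15 were tested. Of these, 4 were higher and 1 lower, with a median log2 fold change of 0.98. CDH3, the P-cadherin gene next to CDH1 in the genome, rose to 2.79 ± 0.43 CPM in DIS3-sh1, compared with 0.81 ± 0.05 CPM in Scramble (log2 fold change 1.79 ± 0.25, edgeR adjusted p = 1.47e-07). CDH4 (1.57 ± 0.23), CDH12 (1.18 ± 0.27) and CDH24 (0.77 ± 0.14) also rose. The 1 called lower, CDH10, was named after its values were seen and passed the filter on low counts only through Scramble, at 0.44 ± 0.19 CPM in DIS3-sh1 and 1.07 ± 0.26 CPM in Scramble, so its call gives no support.

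Catenins link cadherins to actin. Of 20 catenins and adherens junction genes, 18 were tested, with 9 higher, 7 lower and a median of 0.08. CTNNB1, the beta-catenin that binds cadherin tails and also acts in Wnt signalling, fell to 289 ± 3.53 CPM in DIS3-sh1, compared with 585 ± 9.13 CPM in Scramble (log2 fold change -1.02 ± 0.03, edgeR adjusted p = 4.60e-25). JUP, its close relative plakoglobin of adherens junctions and desmosomes, rose to 55.0 ± 2.08 CPM, against 32.8 ± 3.18 CPM (log2 fold change 0.75 ± 0.06, edgeR adjusted p = 1.54e-12). LIMA1, an actin-binding partner of alpha-catenin, rose (log2 fold change 0.67), and CBLL1, the Hakai ubiquitin ligase that targets E-cadherin, fell by 0.56.

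In the desmosome list, 3 of 5 tested genes were higher and 0 lower, with a median of 0.17, beside 34.5% higher and 32.6% lower over all genes tested. DSP, a desmosome protein that was listed with the plakins, was called lower, so the count of 0 depends on that placement. The desmocollin genes DSC2 (88.8 ± 2.68 CPM in DIS3-sh1, compared with 61.8 ± 2.28 CPM in Scramble) and DSC3 rose (log2 fold changes 0.52 and 0.17), and so did PERP (0.23). DSG2 (0.003 ± 0.03) and PKP2 (0.08 ± 0.06) were not called, and 0 genes were lower at an unadjusted p under 0.05. With upper-quartile scaling all 5 were called higher, PKP2 with an edgeR adjusted p of 0.0154. That scaling also moved the median of all genes tested from 0.02 to 0.10, so the added calls are not particular to these genes. PKP2 was also called without DIS3-sh1 replicate 1 (0.0499).

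Tight junction genes had 8 higher and 6 lower of 19 tested (median 0.15). PATJ, a scaffold of the Crumbs polarity complex, rose to 102 ± 0.85 CPM in DIS3-sh1, compared with 50.1 ± 3.46 CPM in Scramble (log2 fold change 1.03 ± 0.05, edgeR adjusted p = 1.03e-18), while its partner gene PALS1 fell by 0.64. CGNL1, paracingulin, rose (log2 fold change 1.20) and TJP1, the ZO-1 scaffold, fell by 0.45. Of 8 gap junction genes 5 were tested. GJA3 rose (log2 fold change 0.71), and GJA1 (-0.12) and GJC1 (-0.15) fell. Upper-quartile scaling, which raised the median of all genes tested to 0.10, ended the calls of GJA1 (edgeR adjusted p = 0.457) and GJC1 (0.13). GJA1 was also not called without DIS3-sh1 replicate 2 (0.177) or Scramble replicate 3 (0.0937).

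**Figure D4:**
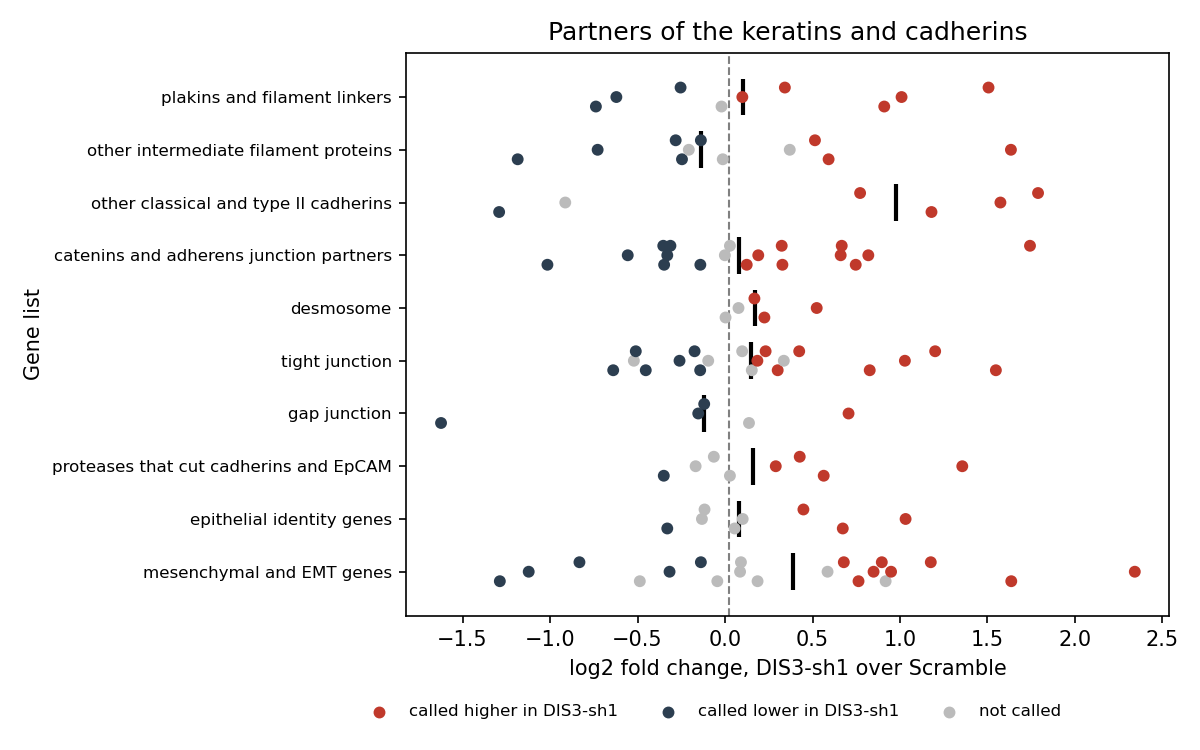
Log2 fold change, DIS3-sh1 over Scramble, of each tested gene in 10 lists of partner and marker genes; points are red where called higher, blue where called lower and grey where not called (edgeR, adjusted p under 0.05), black bars are list medians and the dashed line is the median of all genes tested (0.02). The list medians lie between -0.14 (other intermediate filament proteins) and 0.98 (other cadherins).

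Proteases that cut cadherins and EPCAM had 4 higher and 1 lower of 8 tested (median 0.16). NCSTN, the nicastrin subunit of gamma-secretase, rose to 106 ± 5.22 CPM in DIS3-sh1, compared with 41.5 ± 1.56 CPM in Scramble (log2 fold change 1.36 ± 0.05, edgeR adjusted p = 1.54e-21). The sheddase genes ADAM15 (log2 fold change 0.56) and ADAM17 (0.43) rose, and ADAM10, the main sheddase of both cadherins, fell by 0.35. Of 21 other epithelial identity genes, 19 had a count and 8 passed the filter, of which 3 were higher and 1 lower, with a median of 0.08. CDS1 (0.67 ± 0.07), SPINT2 (0.45 ± 0.08) and GRHL3 (1.03 ± 0.28) rose and KLF4 fell by 0.33. The splicing regulator ESRP1 and the transcription factor GRHL2 averaged at most 0.10 CPM in either group.

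Of 26 genes of mesenchymal cells and of the epithelial to mesenchymal transition, 20 were tested, with 8 higher, 5 lower and a median of 0.39. ACTA2, smooth muscle actin, rose to 23.6 ± 1.55 CPM in DIS3-sh1, compared with 4.64 ± 0.96 CPM in Scramble (log2 fold change 2.34 ± 0.11, edgeR adjusted p = 1.67e-18), and FN1, fibronectin, to 57.1 ± 2.38 CPM, against 25.3 ± 1.12 CPM (1.18 ± 0.06, edgeR adjusted p = 6.88e-18). SNAI2, the Slug repressor of CDH1, fell to 9.27 ± 0.18 CPM, against 22.7 ± 0.99 CPM (log2 fold change -1.29 ± 0.08, edgeR adjusted p = 9.54e-15), and TCF4, another E-box factor, fell by 1.12. Among other repressors of CDH1, named after their values were seen, ZEB1 fell by 0.32, while ZEB2 (0.09 ± 0.05) and SNAI1 (-0.49 ± 0.28) were not called. Other factors of this list, TWIST1, TWIST2 and FOXC2 among them, are not reported here, so nothing is read from this selection. A link of these factors to the level of CDH1 was not tested.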

How the data were processed

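The authors deposited 1 gene table of expected counts, which may hold fractions: between 53.24% and 56.03% of a library's nonzero values were whole numbers. The tools named, per the submitters' processing notes, are featureCounts 1.5.1, HISAT2 2.1.0, SAMtools and Bowtie2 2.3.5, and the build is hg38. Their roles and settings, the annotation and the use of strand are not given in the sources used here. How reads with several placements were assigned is not given either, so values of genes with similar copies, and of the copies, are uncertain. Of 9 columns of values, 3 carry names that match no sample label and were not used, so the comparisons planned for DIS3-sh2 were not computed.

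Symbols were found for 61757 of 61853 identifiers. Coordinates, gene types and transcripts came from GENCODE 29 on GRCh38. Values were rounded to whole counts and fitted over all genes by edgeR 4.0.16 under R 4.3.3 (filterByExpr, then TMM scaling, group as the only term, robust quasi-likelihood F-test, two-sided, Benjamini-Hochberg adjustment over 19591 genes). SE was taken as the size of the log2 fold change over the square root of F, and 95% intervals use the total degrees of freedom of that test. CPM are TMM-scaled, and SD is over 3 libraries. Every adjusted p is from this fit unless another setting is named, and "called" means an adjusted p under 0.05. The fit was tested on simulated counts in which 200 of the 19591 genes were changed. Changes of 1.25-fold, 1.5-fold, 2-fold and 4-fold were called in 50%, 78%, 84% and 92% of cases, with 10 false calls. In the data 67% of genes were called, so the simulation does not test the fit under so many changes. The design calls the libraries biological replicates, but the labels do not say whether they came from separate cultures. The p-values therefore set group differences against the spread between these libraries only. The 8 genes and the lists were chosen with earlier results of these data known. Named were DIS3, the 8 genes, up to 4 genes per list with the smallest p, the 3 keratin copies with the most counts and the 2 nearest profiles per gene, and ZEB1, ZEB2, SNAI1, DSG2, CDH10, KRT8P33, silent genes and neighbours within 10000 bases besides. Some genes that this rule names are not reported here. Sequences were aligned with Biopython 1.88.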

Additional observations from a re-analysis of the deposited data

How the results depend on the processing

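KRT8, KRT18, KRT10, CDH1 and VIM kept their direction and their side of the threshold under all 15 alternatives run, with log2 fold changes of 1.42 to 2.89, 0.25 to 0.36, -0.95 to -0.74, 1.05 to 1.27 and 0.07 to 0.17. The low value of KRT8 is the sum with its copies. CDH2 (-0.08, not called) was called lower with RLE scaling (-0.094, adjusted p = 0.0287), with the replicate number as a block (replicate block, -0.083, 0.0386) and with ribosomal, mitochondrial and small structural genes left out (-0.089, 0.0341), and it ranged from -0.108 to -0.042 as single libraries were left out, called without DIS3-sh1 replicate 3 (0.0239) and without Scramble replicate 2 (0.0447). EPCAM (0.01, not called) changed sign with RLE scaling (-0.003), DESeq2 (-0.006), limma-voom (-0.030), the replicate block (-0.010) and values rounded down (-0.011), and ranged from -0.351 to 0.360 as single libraries were left out. The cause was not tested. It rests on 69.5 counts in DIS3-sh1 and 72.0 in Scramble. Over all genes, between 5978 and 7745 were called higher and between 5471 and 6549 lower. Deviations of same-numbered libraries from their group means correlated at 0.145, 0.053 and -0.025, so the numbers were not taken to pair them.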
